A study of Mus musculus with 10 samples.

Results

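The genes described here are 6 transcription regulators known from stem-like, memory and resting T cells, Tcf7, Lef1, Myb, Bach2, Id3 and Satb1, followed across the T cell lineages, clone sizes and treatment groups of tumour-infiltrating T cells. They were taken by symbol from the features of the single-cell RNA libraries and make up 6 of 31053 features. The libraries came from mouse colorectal carcinoma, in 5 samples of single-cell RNA sequencing with 5′ chemistry and 5 samples of T cell receptor (TCR) sequencing of the same tumours. The combination group received S. chamaejasme, a plant preparation, together with anti-PD-1 therapy (2 libraries of each kind), the S. chamaejasme group received the plant preparation without the antibody (1 library of each kind), and the untreated group received neither (2 libraries of each kind). The labels give no tumour line, strain, age, dose or day, and no group received anti-PD-1 alone. They do not say whether libraries of a group came from separate animals, so no p-value measures more than the spread between these samples, which may be technical.

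TCF-1, encoded by Tcf7, and LEF-1 are related HMG-box factors that bind TCF/LEF sites and can recruit beta-catenin or Groucho/TLE corepressors, and in T cells they keep naive, memory and stem-like programmes active and are turned down as effector cells form. BACH2 represses genes that AP-1 factors and BLIMP-1 would otherwise switch on, MYB supports self-renewal and survival of stem-like T cells, ID3 blocks E proteins and marks memory precursors, and SATB1 organises chromatin in thymocytes and peripheral T cells. In tumours, T cells that keep TCF-1 are known as the pool from which anti-PD-1 therapy draws its response.

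Windows around transcript starts of 3 members are printed first, since Tcf7 and Lef1 are related genes that moved differently in these cells, Lef1 has starts inside the gene, one of which is printed, and Myb was the member whose clone size difference depended on lineage. Each window holds 250 bases before and 50 bases after a RefSeq transcript start on GRCm38.p6, read 5′ to 3′ on the gene's strand. Capitals mark the TCF/LEF core CTTTGA on either strand (TCAAAG when read on the opposite one) and the E-box CANNTG, the kind of site that E proteins bind.
Lef1, start nearest to the gene's 5′ end, plus strand, chr3:131110073-131110372: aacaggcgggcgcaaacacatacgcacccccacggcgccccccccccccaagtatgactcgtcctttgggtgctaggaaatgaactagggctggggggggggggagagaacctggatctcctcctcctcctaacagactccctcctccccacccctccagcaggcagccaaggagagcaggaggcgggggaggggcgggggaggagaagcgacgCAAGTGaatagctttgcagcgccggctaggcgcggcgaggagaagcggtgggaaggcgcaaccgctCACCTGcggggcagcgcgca
Lef1, internal start, plus strand, chr3:131156044-131156343: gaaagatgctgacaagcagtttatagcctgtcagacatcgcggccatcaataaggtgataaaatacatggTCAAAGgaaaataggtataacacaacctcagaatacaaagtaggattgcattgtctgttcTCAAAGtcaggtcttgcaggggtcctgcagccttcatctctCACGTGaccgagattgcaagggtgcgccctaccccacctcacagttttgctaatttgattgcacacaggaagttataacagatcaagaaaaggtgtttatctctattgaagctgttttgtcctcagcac
Tcf7, minus strand, chr11:52282965-52283264: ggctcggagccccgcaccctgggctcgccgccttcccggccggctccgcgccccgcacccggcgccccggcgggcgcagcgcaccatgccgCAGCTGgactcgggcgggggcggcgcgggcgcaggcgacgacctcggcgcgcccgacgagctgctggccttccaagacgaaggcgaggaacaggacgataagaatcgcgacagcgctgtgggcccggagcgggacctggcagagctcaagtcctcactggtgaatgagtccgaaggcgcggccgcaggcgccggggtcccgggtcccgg
Myb, minus strand, chr10:21160935-21161234: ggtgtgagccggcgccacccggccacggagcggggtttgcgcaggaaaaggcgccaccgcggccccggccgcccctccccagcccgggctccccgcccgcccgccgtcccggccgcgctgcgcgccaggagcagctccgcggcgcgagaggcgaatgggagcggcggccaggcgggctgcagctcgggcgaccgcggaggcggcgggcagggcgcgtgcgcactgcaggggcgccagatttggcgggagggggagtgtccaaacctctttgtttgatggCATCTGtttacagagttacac
The start of the internal Lef1 window printed lies 45823 bases inside the gene, and this window held 2 TCF/LEF cores and 1 E-box, whereas the window nearest to the 5′ end held 0 cores and 2 E-boxes. Another internal Lef1 start, 2320 bases inside the gene, had 0 cores and 3 E-boxes in its window. The Tcf7 window and the Myb window each held 0 cores and 1 E-box. Most of the Tcf7 window is not promoter but coding sequence: from an ATG 165 bases before the start it reads as a single open frame of 71 codons to the end of the window, the known N terminus of full-length TCF-1, and its E-box lies within that frame. Of the other members, the window of Satb1 nearest to the 5′ end held 1 E-box and 0 cores, that of Id3 held neither motif, and the RefSeq start of Bach2 that was used lies 178631 bases inside the gene and held 1 core and 0 E-boxes. CTTTGA occurred in 16.0% and CANNTG in 72.3% of 32851 RefSeq start windows of this length, so that an E-box is common in any window. The matches describe letters in these windows only.

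On GRCm38 with GENCODE M21, Tcf7 lies at chr11:52252371-52283014 on the minus strand, Lef1 at chr3:131110471-131224356 on the plus strand, Myb at chr10:21124935-21160984 on the minus strand, Bach2 at chr4:32238804-32586108 on the plus strand, Id3 at chr4:136143497-136145755 on the plus strand and Satb1 at chr17:51736187-51833290 on the minus strand. Id3 and Satb1 overlap no other annotated feature of the table, and overlapping features of the other members held few UMIs, at most 3.36% of the member's own UMIs (Gm43352, on the strand opposite to Lef1).

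The 5 RNA libraries held 8763821 to 27759543 UMIs each and kept 2244 to 5044 cells after filtering, 20239 in all. Cells with a T cell receptor or CD3 transcript were assigned to lineages by coreceptor UMIs: CD8 cells (3686, at least 1 Cd8a or Cd8b1 UMI and no Cd4 or Foxp3 UMI), CD4 conventional cells (5791, at least 1 Cd4 UMI and no Cd8a, Cd8b1 or Foxp3 UMI) and regulatory T cells (Treg; 543, Cd4 and Foxp3 UMIs and no Cd8 UMI). All 8 T cell markers checked, Cd3d, Cd3e and Trac among them, were above 0 in every sum. Cd3d, Cd3e and Trac also served in the gate, so their detection does not test it. A cluster of the whole T cell map with Penk and Foxp3 among its leading genes, cluster 6, gave 389 cells to the Treg gate and 232 to the CD4 conventional gate. Some Treg cells may thus lie among CD4 conventional cells, and their part in the comparisons was not tested. UMIs were summed per library and lineage, and levels are CPM, the UMIs of a gene per 1000000 UMIs of such a sum, which compare 1 gene between sums and not different genes. No batch is named in the labels, but untreated titles follow another format than treated ones, and treatment cannot be told apart from a batch that ran with the groups. Transcripts often seen with poor RNA quality were higher in the untreated sums: AY036118 stood at 673 to 1207 CPM in combination sums, 739 to 775 CPM in S. chamaejasme sums and 1903 to 3907 CPM in untreated sums, and their part in the group comparisons was not tested.

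Treg cells had the lowest Tcf7 and Lef1 of the 3 lineages, and 6 of 6 members were lower in Treg cells than in CD4 conventional cells, where 26.4% of 9320 genes tested were called in either direction and 12.0% were called lower. In CD8 cells 4 members were lower than in CD4 conventional cells, Id3 was higher and Lef1 was not called, and 24.9% of 9320 genes tested were called. Tcf7 stood at 217 and 234 CPM in CD8 cells of the combination libraries, 216 CPM in those of the S. chamaejasme library and 192 and 188 CPM in those of the untreated libraries. In Treg cells it stood at 73.4 and 112 CPM, 102 CPM, and 73.8 and 80.5 CPM in the same order, and in CD4 conventional cells at 285 and 322 CPM, 361 CPM, and 268 and 262 CPM. The 3 lineages did not overlap: every CD8 value was above every Treg value and below every CD4 conventional value. The fitted log2 change, given here and throughout with its standard error, was -0.45 ± 0.07 for CD8 cells against CD4 conventional cells (adjusted p = 4.97e-05) and -1.95 ± 0.11 for Treg cells against CD4 conventional cells (adjusted p = 5.32e-12), in the same direction in 5 of 5 libraries. Changes were tested with edgeR's quasi-likelihood test with the library as a block and Benjamini-Hochberg adjustment over all genes tested, and a gene was called at an adjusted p under 0.05. CD8 and Treg cells were not set against each other in a test.

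Lef1, the partner of TCF-1, separated Treg cells but not CD8 cells from CD4 conventional cells. It stood at 433 and 464 CPM in CD8 cells of the combination libraries, 249 CPM in those of the S. chamaejasme library and 252 and 373 CPM in those of the untreated libraries. Treg cells had 140.0 and 167 CPM, 136 CPM, and 111 and 101 CPM in that order, and CD4 conventional cells had 455 and 498 CPM, 367 CPM, and 312 and 407 CPM. CD8 and CD4 conventional cells overlapped, and Treg cells lay below both in every library. The log2 change was -0.16 ± 0.08 in CD8 cells (adjusted p = 0.185) and -1.87 ± 0.12 in Treg cells (adjusted p = 4.61e-11), each against CD4 conventional cells. When lineages were taken from clusters instead of single coreceptor UMIs, the Lef1 change of the CD8 class was -0.61 with an adjusted p of 0.00165. That class also took in cluster 10, led by Xcl1 and Fcer1g (166 of 816 cells gated as CD8), and cluster 12, led by Trdv4 and Cd163l1 (16 of 196). Lef1 averaged 108 CPM in cluster 10 and 46.9 CPM in cluster 12, and their part in this change was not tested.

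Bach2, the AP-1 competitor, averaged 40.9 ± 10.3 CPM in CD8 cells, 44.4 ± 6.2 CPM in Treg cells and 65.0 ± 12.7 CPM in CD4 conventional cells (SD, n = 5 libraries each). Its highest CD8 value, 56.0 CPM, was above its lowest CD4 conventional value, 52.0 CPM, while the Treg values of 36.9 to 50.9 CPM lay below all CD4 conventional values. It was lower, with a log2 change of -0.60 ± 0.09 in CD8 cells (adjusted p = 2.57e-05) and of -0.86 ± 0.15 in Treg cells (adjusted p = 0.000116) than in CD4 conventional cells. Satb1, the chromatin organiser, was lower, with a log2 change of -0.36 ± 0.08 in CD8 cells (adjusted p = 0.00203) and of -1.09 ± 0.11 in Treg cells (adjusted p = 4.82e-08), with averages of 250.5 ± 48.6 CPM in CD8 cells, 192 ± 58.9 CPM in Treg cells and 335 ± 50.1 CPM in CD4 conventional cells (SD, n = 5 each). Its ranges overlapped in both comparisons, from 169.9 to 296 CPM in CD8 cells and from 136 to 288 CPM in Treg cells, against 251 to 379 CPM in CD4 conventional cells.

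Id3, the inhibitor of E proteins, was the member that was higher in CD8 cells. It averaged 89.5 ± 12.3 CPM in CD8 cells, 49.5 ± 12.3 CPM in Treg cells and 79.6 ± 12.99 CPM in CD4 conventional cells (SD, n = 5 each), and within each library the CD8 value was above the CD4 conventional value although the ranges overlapped. The log2 change was +0.25 ± 0.08 in CD8 cells (adjusted p = 0.0319) and -0.71 ± 0.14 in Treg cells (adjusted p = 0.000405) against CD4 conventional cells. The CD8 call was lost in DESeq2 (adjusted p = 0.118), with lineages taken from clusters (0.559) and without combination replicate 1 (0.265) or combination replicate 2 (0.0704), and the Treg call was lost when gates asked for 2 UMIs (log2 change -0.26, adjusted p = 0.498). Myb was a sparse transcript, at 8.78 to 26.9 CPM in CD8 cells, 14.8 to 19.4 CPM in Treg cells and 21.3 to 35.8 CPM in CD4 conventional cells. It was lower, with a log2 change of -0.57 ± 0.12 in CD8 cells (adjusted p = 0.000922) and of -0.93 ± 0.21 in Treg cells (adjusted p = 0.00207), and its Treg sums held 19 and 20 UMIs in the combination libraries, 7 in the S. chamaejasme library and 2 and 5 in the untreated libraries.

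In Treg cells, 9 of 14 quiescence factors tested were also lower (Ikzf1 at -1.39, Txnip at -1.11, Klf2 at -0.94) and 2 were higher, and 10 of 18 genes of stem-like and memory surface proteins and survival were lower (Dapl1 at -3.53, Igfbp4 at -3.33) and 2 were higher. The median log2 change of these lists was -0.52 and -0.82, beside -0.02 over all genes. The lists were chosen with earlier results of these data known, and Dapl1, Ly6c2, Il6ra and Igfbp4 are also leading genes of clusters of these cells. List counts and medians, here and below, are therefore descriptions and not independent tests. Among E proteins and their inhibitors, Id2, the Id protein of effector and regulatory T cells, was higher by 1.49 in Treg cells. Of the opponents of BACH2 and AP-1 genes, Prdm1, which encodes BLIMP-1, was higher by 1.16 in Treg cells, and 5 of 15 genes, Jun (-1.11) and Fos (-0.76) among them, were lower. In CD8 cells, 6 of these 15 genes were lower and 0 were higher than in CD4 conventional cells, with Maff at -1.05 and Batf at -0.82. Of 18 TCF/LEF cofactors and Wnt pathway genes tested, 1 was higher and 1 was lower in CD8 cells, and 2 were higher (Rnf43 at 1.18 and Ctnnb1, which encodes beta-catenin, at 0.57) and 2 lower in Treg cells. Over all genes tested, 24.9% were called in CD8 cells and 26.4% in Treg cells, each against CD4 conventional cells.

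**Figure D1:**
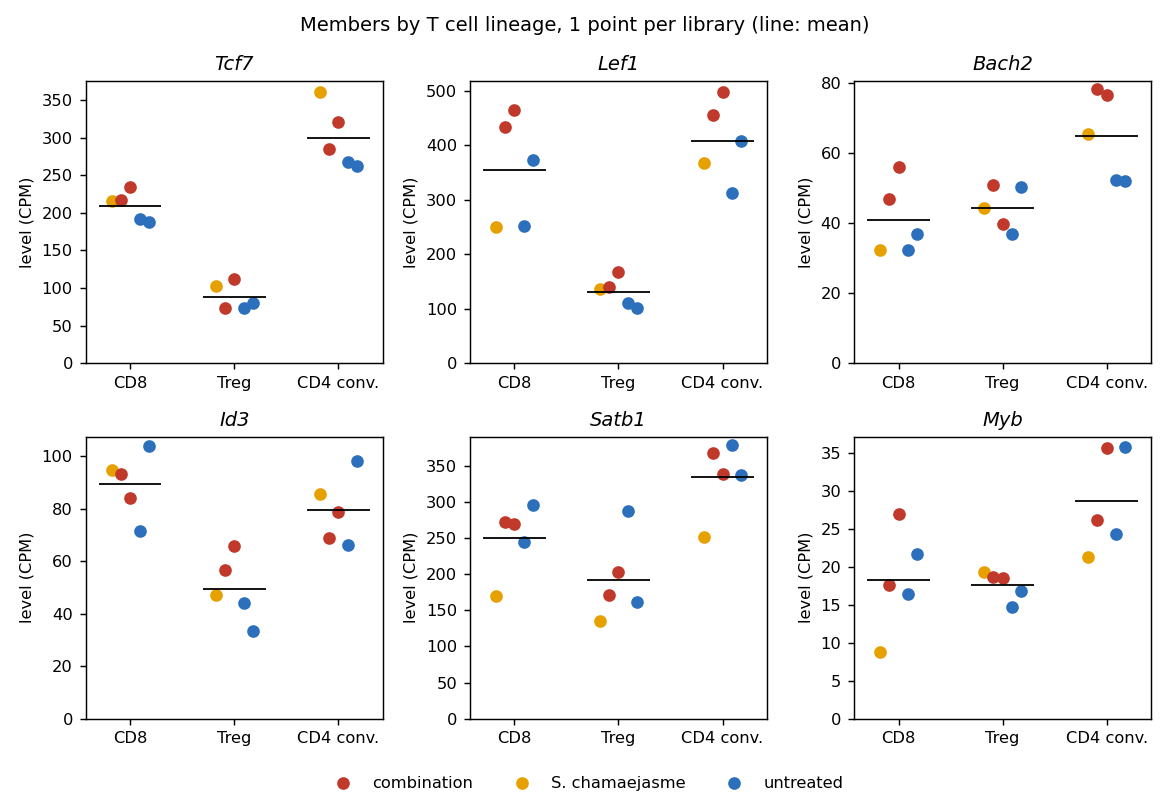
Level of each member in CPM (vertical axes, from 0, each gene on its own scale) in CD8, Treg and CD4 conventional sums, with a point for each of the 5 libraries and a line at the mean. Treg values of Tcf7 and Lef1 lie below every value of both other lineages, and for Tcf7 the CD8 values of 188 to 234 CPM lie below all CD4 conventional values.

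Expanded clones had less Lef1, Bach2, Id3 and Satb1 than single cells in both lineages, and less Tcf7 and Myb in CD8 cells. A clone was a set of cells of 1 library with the same TRB V gene, J gene and CDR3 nucleotide sequence, and cells of clones of at least 2 cells (expanded) were set against cells whose clone was seen once (single) in the same library. In expanded CD8 cells, all 6 members were lower than in single CD8 cells, where 21.3% of 7089 genes tested were called and 9.76% were called lower. The change ran from a 5.46-fold lower level for Lef1 to a 1.40-fold lower level for Tcf7 (2 raised to the fitted log2 change). Here and below the fit also scales the sums to each other by TMM, so fitted changes differ from ratios of the printed CPM. Tcf7, for example, averaged 177 CPM in expanded and 220 CPM in single CD8 cells. In sums such as these, fewer cells with a transcript and less transcript per cell cannot be told apart.

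Lef1 in CD8 cells stood at 171 and 104 CPM in expanded cells of the combination libraries, 69.5 CPM in those of the S. chamaejasme library and 58.3 and 66.1 CPM in those of the untreated libraries. Single cells of the same libraries had 454 and 515 CPM, 368 CPM, and 388 and 444 CPM. Every expanded value was below every single value, and among expanded cells those of combination replicate 1 were the highest. The log2 change was -2.45 ± 0.14 (adjusted p = 3.11e-10).

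Tcf7 differed far less in the same cells. It stood at 191 and 186 CPM in expanded cells of the combination libraries, 181 CPM in those of the S. chamaejasme library and 150.4 and 179 CPM in those of the untreated libraries. Single cells had 220.2 and 242 CPM, 245 CPM, and 210.1 and 183 CPM. The ranges overlapped, because single cells of untreated replicate 2 had less than expanded cells of both combination libraries, although expanded cells were lower in each library. The fit gave a log2 change of -0.49 ± 0.10 (adjusted p = 0.00082).

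Bach2 and Id3 behaved like Lef1 rather than Tcf7 in the size of the change. Bach2 stood at 14.2 and 8.18 CPM in expanded CD8 cells of the combination libraries, 12.3 CPM in those of the S. chamaejasme library and 16.9 and 9.79 CPM in those of the untreated libraries. These levels rest on 5 and 4, 17, and 9 and 4 UMIs. Single cells had 49.3 and 63.1 CPM, 43.9 CPM, and 39.4 and 43.3 CPM, all above every expanded value. This was a log2 change of -2.09 ± 0.22 (adjusted p = 7.52e-07). Id3 stood at 37.0 and 24.5 CPM, 32.6 CPM, and 37.6 and 22.0 CPM in expanded CD8 cells of the combination, S. chamaejasme and untreated libraries. Single cells had 97.1 and 90.9 CPM, 129 CPM, and 99.6 and 117 CPM, again with no overlap, and the log2 change was -1.98 ± 0.15 (adjusted p = 1.7e-08).

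Satb1 was lower, with a log2 change of -1.001 ± 0.14 (adjusted p = 3.21e-05), with 147 ± 54.0 CPM in expanded CD8 cells and 262 ± 44.2 CPM in single ones (SD, n = 5 each). Its expanded value was highest in the untreated libraries, at 192 and 215 CPM, which lay above the 187 CPM of single cells of the S. chamaejasme library. Myb stood at 5.69 and 6.13 CPM, 2.90 CPM, and 5.64 and 4.89 CPM in expanded CD8 cells of the combination, S. chamaejasme and untreated libraries. These levels rest on 2, 3, 4, 3 and 2 UMIs. Single cells had 18.3 and 29.4 CPM, 9.11 CPM, and 23.0 and 26.9 CPM, so that no expanded value reached a single value. The log2 change of Myb was -2.17 ± 0.30 (adjusted p = 2.55e-05). Myb passed the filter on low counts only through the single sums, where it is higher, so this change is a description.

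Expanded CD8 cells were mostly cells of 1 cluster of the whole T cell map, cluster 7, whose leading genes were Gzma, Gzmk and Gzmb. It held 88.7% and 92.1% of expanded CD8 cells in the combination libraries, 95.6% in the S. chamaejasme library and 90.8% and 96.6% in the untreated libraries, against 13.7% and 13.3%, 18.9%, and 31.2% and 17.2% of single CD8 cells. Cluster 5, led by Ly6c2 and Dapl1, held 0% to 8.06% of expanded and 42.3% to 73.9% of single CD8 cells. Within cluster 7, the same comparison gave log2 changes of -0.27 for Lef1 (adjusted p = 0.717), -0.56 for Id3 (adjusted p = 0.487), +0.09 for Tcf7 and +0.04 for Satb1, and no member was called. In that cluster edgeR called 19 of 4540 genes, 397 genes had an unadjusted p under 0.05, and Bach2 and Myb did not pass the filter on low counts.

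In expanded CD4 conventional cells 4 of 6 members were lower than in single ones, and Tcf7 and Myb were not called. There 23.1% of 6948 genes tested were called and 10.5% were called lower. Lef1 stood at 116 and 151 CPM in expanded cells of the combination libraries, 91.5 CPM in those of the S. chamaejasme library and 42.7 and 115 CPM in those of the untreated libraries. Single cells had 486 and 524 CPM, 459 CPM, and 366 and 456 CPM, all above every expanded value. The fit gave a log2 change of -2.32 ± 0.11 (adjusted p = 1.23e-10).

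Bach2 was lower, with a log2 change of -1.54 ± 0.17 (adjusted p = 1.96e-06), at 27.1 ± 14.0 CPM in expanded CD4 conventional cells and 73.0 ± 9.31 CPM in single ones (SD, n = 5 each). Id3 was lower, with a log2 change of -1.20 ± 0.16 (adjusted p = 1.36e-05), at 40.8 ± 14.8 CPM in expanded cells and 88.9 ± 14.5 CPM in single ones. For both genes every expanded value was below every single value, although the lowest expanded Bach2 value, 6.10 CPM in untreated replicate 1, rests on 2 UMIs. Satb1 was lower, with a log2 change of -0.80 ± 0.09 (adjusted p = 1.6e-06), at 229 ± 55.3 CPM in expanded cells and 345 ± 42.2 CPM in single ones, with overlap between 1 expanded value of 278 CPM in untreated replicate 1 and the 276 CPM of single cells of the S. chamaejasme library.

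Tcf7 in CD4 conventional cells stood at 367 and 351 CPM in expanded cells of the combination libraries, 380.2 CPM in those of the S. chamaejasme library and 207 and 301 CPM in those of the untreated libraries. Single cells had 278 and 324 CPM, 372 CPM, and 288 and 266 CPM. Expanded cells were higher by CPM in 4 of 5 libraries and lower in untreated replicate 1, and the ranges overlapped. The fitted log2 change, which also scales the sums to each other by TMM, was -0.09 ± 0.09 (adjusted p = 0.537), so its sign differs from that of most libraries' CPM.

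Myb stood at 44.2 and 54.3 CPM in expanded CD4 conventional cells of the combination libraries, 21.6 CPM in those of the S. chamaejasme library and 27.5 and 78.2 CPM in those of the untreated libraries. Single cells had 26.2 and 35.5 CPM, 20.2 CPM, and 27.2 and 26.8 CPM. Expanded cells were higher in 5 of 5 libraries, by little in the S. chamaejasme library and in untreated replicate 1, and the ranges overlapped. The log2 change was +0.51 ± 0.19 (adjusted p = 0.0552), above the threshold, and it was +0.30 (adjusted p = 0.265) without untreated replicate 2 and +0.04 (adjusted p = 0.948) when expanded clones needed at least 3 cells. It passed the threshold without the S. chamaejasme library (adjusted p = 0.0389) or untreated replicate 1 (adjusted p = 0.0381). In clones of 2 to 4 cells Myb stood at 48.3 and 53.1 CPM, 28.3 CPM, and 38.3 and 86.7 CPM in the same order of libraries. In clones of at least 5 cells, of which 3 libraries had enough cells, it stood at 21.5 CPM in combination replicate 1 and 13.8 CPM in the S. chamaejasme library and had 0 UMIs in untreated replicate 1. The first 2 of these levels rest on 3 and 5 UMIs, and these counts are too few to give a direction.

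Expanded CD4 conventional cells fell mainly into 2 clusters. Cluster 1, led by Tox2 and Il21, genes of follicular helper cells, held 22.8% to 62.3% of expanded and 18.1% to 22.0% of single cells. Cluster 3, led by Il17a and Il22, the cytokines of Th17 cells, held 24.6% to 72.2% of expanded and 3.82% to 15.2% of single cells. When cells of cluster 3 were left out, a comparison chosen after the data were seen, Myb was higher in expanded cells by 0.96 (adjusted p = 0.000223) and Tcf7 by 0.25 (adjusted p = 0.0419).

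The difference of the clone size change between CD8 and CD4 conventional cells was tested directly, where 2.31% of 7611 genes tested were called. Of the members, 1 of 6 was called: Myb, with a difference of -2.68 ± 0.38 on the log2 scale (CD8 minus CD4 conventional, adjusted p = 0.000226), and it was called under each alternative fitted, between -2.93 and -2.07. It rests on expanded CD8 sums of 2, 3, 4, 3 and 2 Myb UMIs, which would not have passed the filter on low counts by themselves. The differences of the others were -0.77 ± 0.25 for Id3 (adjusted p = 0.135, and 0.0448 without untreated replicate 1), -0.39 ± 0.13 for Tcf7 (adjusted p = 0.148), -0.55 ± 0.33 for Bach2 (adjusted p = 0.506), -0.19 for Satb1 (adjusted p = 0.735) and -0.12 ± 0.20 for Lef1 (adjusted p = 0.887).

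Other genes of the same programmes also differed with clone size. Their lists were chosen with earlier results of these data known, so the counts are descriptions. Beside them, 21.3% of 7089 genes tested in CD8 cells were called in either direction and 9.76% were called lower. Of 16 stem-like and memory surface and survival genes tested in CD8 cells, 13 were lower in expanded cells (Dapl1 at -4.61, Il6ra at -4.42, Igfbp4 at -4.31) and 1 was higher, with a list median of -1.90 beside -0.01 over all genes. Of 14 quiescence factors, 5 were lower (Klf2, which drives homing receptors, at -1.95 and Foxp1 at -0.98) and 3 were higher. Of 13 BACH2 opponents and AP-1 genes, 4 were higher (Prdm1 by 2.02, Fosb by 1.14, Irf4 by 0.86) and 1, Fos, was lower, with a log2 change of -0.70. Id2 was higher by 0.86 in expanded CD8 cells. Of 11 TCF/LEF cofactors and Wnt pathway genes, 2 were higher and 1, the beta-catenin cofactor gene Bcl9l, was lower, with a log2 change of -1.59. Of 18 effector and exhaustion factors, 13 were higher (Bhlhe40 by 2.29, Zeb2 by 1.66, Tbx21 by 1.56), as were 13 of 14 effector molecules (Ifng by 2.45, Gzmb by 2.44) and 5 of 6 inhibitory receptors (Pdcd1 by 1.82, Tigit by 1.45). Of 12 partners and targets of MYB and SATB1, 3 were lower (Bcl2, a survival gene that MYB can activate, at -1.07 and Myc at -1.03) and 2 were higher.

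In CD4 conventional cells, 11 of 17 stem-like and memory genes were lower in expanded cells (Igfbp4 at -4.94, Dapl1 at -4.04) and 4 were higher, with a median of -0.69 beside -0.01 over all genes. Over the 6948 genes tested there, 23.1% were called in either direction and 10.5% were called lower. BACH2 opponents and AP-1 genes were higher in 9 of 14 (Prdm1 by 1.40, Fosb by 1.12, Irf4 by 0.95) and lower in 1. Effector and exhaustion factors were higher in 16 of 17, and Id2 was higher by 0.74. Bcl2 was lower, with a log2 change of -1.61, and so was Myc, at -1.16.

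**Figure D2:**
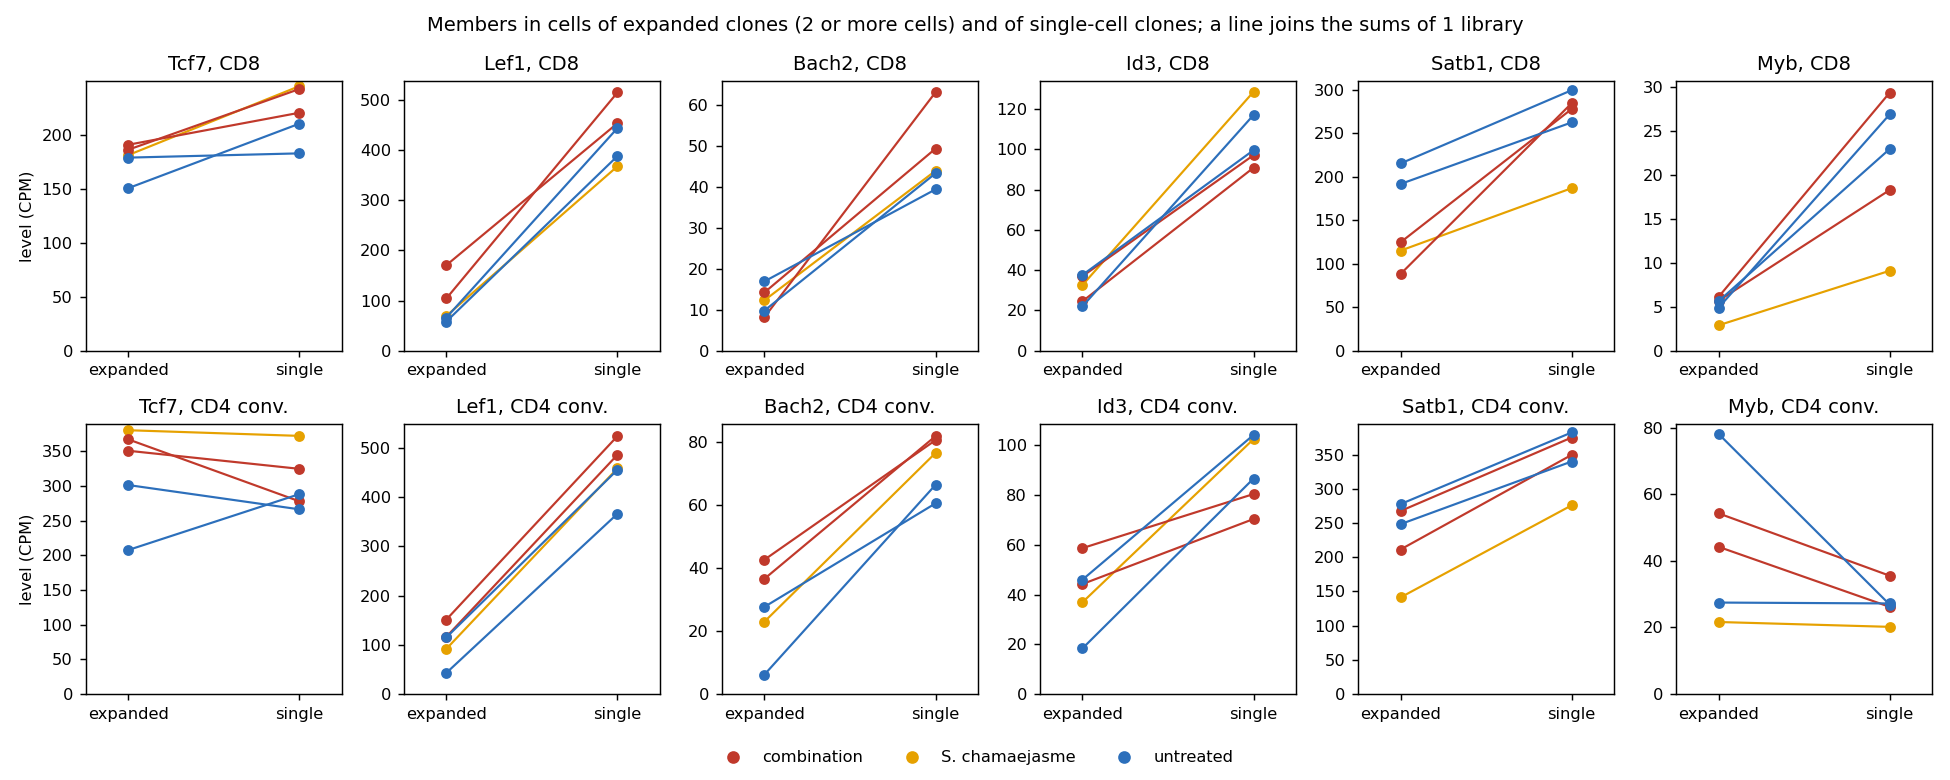
Level of each member in CPM (vertical axes, from 0) in expanded and single cells, with CD8 cells in the upper row and CD4 conventional cells in the lower row and a line for each library. In both rows the lines of Lef1, Bach2 and Id3 are lower at the expanded end in every library. The Myb lines are lower at the expanded end in CD8 cells and higher there in CD4 conventional cells, by little in the S. chamaejasme library and untreated replicate 1.

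PD-1, encoded by Pdcd1, is the receptor that the antibody blocks, and its transcript split CD4 conventional cells at matched depth. Each cell was thinned to 1500 UMIs, and cells with a Pdcd1 UMI were set against cells without one in the same library, in the 4 libraries with at least 20 such cells (99 and 103 cells in the combination libraries, 57 in the S. chamaejasme library and 21 in untreated replicate 2). In droplet data free RNA can give a UMI in a cell that does not express the gene, and its part in these splits was not tested. Lef1, Satb1 and Bach2 were lower in cells with Pdcd1, so 3 of 6 members were called, where 11.7% of 5953 genes tested were called and 6.18% were called lower. Lef1 stood at 135 and 142 CPM in Pdcd1-detected cells of the combination libraries, 152 CPM in those of the S. chamaejasme library and 63.5 CPM in those of untreated replicate 2. These levels rest on 20 and 22, 13 and 2 UMIs. Cells without Pdcd1 had 467 and 529.8 CPM, 372 CPM and 429 CPM, with no overlap, and the log2 change was -2.15 ± 0.19 (adjusted p = 3.75e-28). The edgeR test shares the spread over all genes, so a p this small does not measure the spread of Lef1 between 4 libraries alone. DESeq2 also called 3 of 6 members in this split. Satb1 stood at 141 and 123 CPM, 129 CPM and 127 CPM in Pdcd1-detected cells and at 398 and 386 CPM, 271 CPM and 359.6 CPM in cells without Pdcd1, a change of -1.84 ± 0.20 (adjusted p = 4.77e-19) with no overlap.

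Bach2 was lower, with a log2 change of -1.68 ± 0.37 (adjusted p = 0.000145), and the call was lost without combination replicate 1 (adjusted p = 0.0678). In untreated replicate 2 Bach2 stood at 63.5 CPM in Pdcd1-detected cells and 54.1 CPM in cells without Pdcd1. That 63.5 CPM rests on 2 UMIs, too few to give a direction. The other Pdcd1-detected Bach2 values rest on 4 and 4 UMIs in the combination libraries and 3 UMIs in the S. chamaejasme library. Tcf7 stood at 364 and 401 CPM, 655 CPM and 317 CPM in Pdcd1-detected cells of the combination libraries, the S. chamaejasme library and untreated replicate 2. Cells without Pdcd1 had 293 and 333 CPM, 374 CPM and 251 CPM, so that Tcf7 CPM was higher in Pdcd1-detected cells in 4 of 4 libraries while the TMM-scaled log2 change was +0.07 ± 0.15 (adjusted p = 0.865). Id3 was not called (-0.28 ± 0.27, adjusted p = 0.64), with 257 CPM in Pdcd1-detected cells of the S. chamaejasme library against 26.9 to 64.7 CPM in those of the other libraries. Without the S. chamaejasme library the Id3 change was -1.32 (adjusted p = 0.0049). Myb was not called (+0.41 ± 0.39, adjusted p = 0.637). In the same cells 8 of 17 stem-like and memory genes were lower (Igfbp4 at -6.13) and 2 were higher, and 11 of 17 effector and exhaustion factors were higher (Tox2 by 1.84, Maf by 1.60, Tox by 1.28). Over all genes tested in this split, 11.7% were called in either direction and 6.18% were called lower. CD8 cells held 11 to 22 such cells per library, and their split was not fitted.

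Cells with a Tcf7 UMI were set against cells without one in the same way, after the same thinning, to ask which members go with Tcf7 from cell to cell. In CD8 cells the 5 libraries held 104 to 225 cells with Tcf7, and Lef1 was higher in these by 0.47 ± 0.09 (adjusted p = 0.000212). It was 1 of 4 members tested that was called, where 0.797% of 4519 genes tested were called. Lef1 stood at 532 and 570.0 CPM in Tcf7-detected CD8 cells of the combination libraries, 302 CPM in those of the S. chamaejasme library and 429 and 444 CPM in those of the untreated libraries. Cells without Tcf7 had 385 and 459.7 CPM, 228 CPM, and 209 and 377 CPM. The Tcf7-detected cells were higher in each library, and the ranges overlapped between libraries. Without the library block, edgeR called 0 genes in this split. Bach2 (+0.61 ± 0.22, adjusted p = 0.29), Satb1 (+0.24, adjusted p = 0.475) and Id3 (+0.18, adjusted p = 0.865) were not called. Over all genes tested, 0.243% were called higher and 0.553% lower. Of 14 effector molecules, 8 were lower in Tcf7-detected CD8 cells (Gzma at -1.20, Gzmk at -0.93, Ccl4 at -0.72, Ccl5 at -0.70) and 0 were higher. Of 16 stem-like and memory genes 2 were higher (S1pr1 by 0.53, Ccr7 by 0.41), and of 14 quiescence factors 1 was (Klf2, by 0.31), with 0 lower in either list.

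Among CD4 conventional cells the libraries held 141 to 572 cells with Tcf7, and 1 of 5 members tested was called, Id3, higher by 0.42 ± 0.11 (adjusted p = 0.0275), where 2.66% of 6438 genes tested were called. Id3 stood at 87.4 and 116 CPM in Tcf7-detected cells of the combination libraries, 96.4 CPM in those of the S. chamaejasme library and 89.8 and 122 CPM in those of the untreated libraries. Cells without Tcf7 had 61.6 and 73.3 CPM, 84.3 CPM, and 61.4 and 97.1 CPM, lower in each library with overlap between libraries. The Id3 call was lost in DESeq2 (adjusted p = 0.714), without combination replicate 1 (0.131), combination replicate 2 (0.329) or untreated replicate 1 (0.0673), and without the library block (0.654). Lef1 differed by +0.07, Satb1 by +0.04 and Bach2 by +0.01, none called, and Myb by +0.59 ± 0.19 (adjusted p = 0.085). Effector molecules were lower in 6 of 10 (Gzma at -2.27, Ccl5 at -1.66) and higher in 0. Of 17 effector and exhaustion factors 1 was higher (Tox2, by 0.91) and 6 were lower, and of 15 stem-like and memory genes 1 was higher (Cxcr5, by 1.04) and 1 lower (Dapl1 at -0.51); Tox2 and Cxcr5 are genes of follicular helper cells. Of 7 lineage factors of helper cells 3 were lower (Rora at -0.79, Gata3 at -0.72) and 0 were higher.

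**Figure D3:**
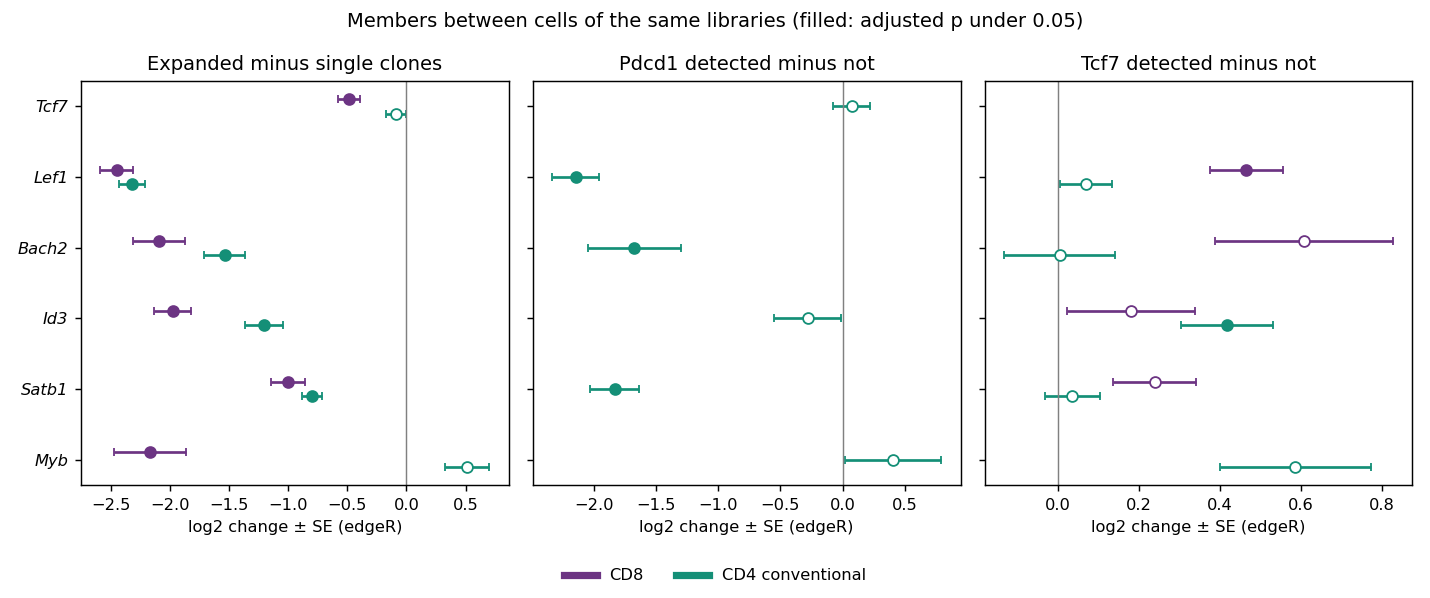
Log2 change ± SE (horizontal axes) of each member within libraries for expanded minus single cells, Pdcd1-detected minus not detected CD4 conventional cells, and Tcf7-detected minus not detected cells, in CD8 and CD4 conventional cells. Filled symbols have an adjusted p under 0.05, and Lef1 is at or below -2.15 in the clone size and Pdcd1 panels while its Tcf7 change in CD8 cells is +0.47.

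Of the members, Bach2 was called in the combination group and Satb1 in the S. chamaejasme group, each in 1 lineage. Where a combination or untreated library is left out below, 1 residual degree of freedom remains and the spread comes from the only group that still has 2 libraries. In CD8 cells of the combination group 0 of 6 members were called against untreated, where 4.58% of 10013 genes tested were called by edgeR. DESeq2 also called 0 of 6, and 2 of 6, Lef1 and Bach2, had an unadjusted p under 0.05. Lef1 stood at 433 and 464 CPM in CD8 cells of the combination libraries and 252 and 373 CPM in those of the untreated libraries. The untreated libraries differed from each other by more than the combination libraries did. The log2 change was +0.50 ± 0.19 (adjusted p = 0.169), and it was -0.0052 (adjusted p = 0.994) among cells of the Dapl1-led cluster 5 and +0.76 (adjusted p = 0.0598) among cells of the granzyme-led cluster 7. Without untreated replicate 2 it was +0.91, and the changes of Bach2 and Tcf7 were +0.75 and +0.32. Without untreated replicate 1 the Lef1 change was +0.19. These fits leave 1 untreated library, so no p is given for them. Bach2 stood at 47.0 and 56.0 CPM in combination CD8 cells and 32.3 and 36.9 CPM in untreated ones, a change of +0.56 ± 0.16 (adjusted p = 0.0811) that was +0.24 (adjusted p = 0.603) within cluster 5 and -0.57 (adjusted p = 0.541) within cluster 7. Tcf7 differed by +0.25 ± 0.12 (adjusted p = 0.257), Myb by +0.20 (adjusted p = 0.692), Id3 by -0.01 (adjusted p = 0.976) and Satb1 by -0.00 (adjusted p = 0.99). The makeup of CD8 cells differed between the groups: cluster 5 held 61.9% and 61.3% of CD8 cells in the combination libraries, 22.9% in the S. chamaejasme library and 35.0% and 49.9% in the untreated libraries, and cluster 7, led by granzyme genes, held 19.8% and 24.1%, 52.5%, and 51.5% and 29.4%.

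In CD4 conventional cells 1 of 6 members was called, where 5.37% of 10328 genes tested were called and 1.57% were called higher. Bach2 was higher in the combination group, at 78.4 and 76.8 CPM in the combination libraries and 52.5 and 52.0 CPM in the untreated libraries. Values within each group were close, on 2 libraries in each. The log2 change of Bach2 was +0.53 ± 0.11 (adjusted p = 0.0277). The call was lost in DESeq2 (adjusted p = 0.155), with gates of 2 UMIs (0.0639), with lineages from clusters (0.0656), and without combination replicate 1 (0.394) or combination replicate 2 (0.118). Without cells of the Il17a-led cluster 3 the change was +0.33 (adjusted p = 0.159). That cluster held 7.65% and 6.67% of CD4 conventional cells in the combination libraries, 23.6% in the S. chamaejasme library and 27.8% and 14.1% in the untreated libraries.

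Lef1 in CD4 conventional cells differed by +0.35 ± 0.14 (adjusted p = 0.155) between combination and untreated. It was higher by 0.72 (adjusted p = 0.00843) when cells of cluster 8, led by Plaur, AY036118 and Lars2, were left out, a choice made after the data were seen. Without untreated replicate 2 the Lef1 change was +0.60. Cluster 8 held 1.06% and 1.15% of CD4 conventional cells in the combination libraries, 0.44% in the S. chamaejasme library and 20.6% and 29.5% in the untreated libraries. Tcf7 differed by +0.15 (adjusted p = 0.366), Id3 by -0.24 (adjusted p = 0.419, and a change of -0.49 without untreated replicate 1), Satb1 by -0.06 (adjusted p = 0.752) and Myb by -0.06 (adjusted p = 0.878). In Treg cells 0 of 5 members tested were called by edgeR and 0 by DESeq2, with Lef1 at an unadjusted p under 0.05, where 0.265% of 5650 genes tested were called. Lef1 differed by +0.53 ± 0.25 (adjusted p = 0.513) and Id3 by +0.69 ± 0.36 (adjusted p = 0.569), and Myb did not pass the filter on low counts. The difference of the combination change between CD8 and CD4 conventional cells was called for 0 of 6 members, where 0.105% of 10526 genes tested were called, and 0 of 6 had an unadjusted p under 0.05 or were called by DESeq2. The largest of these differences was +0.23, for Myb.

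The S. chamaejasme group has 1 library, which was assumed to vary like the others, and its comparison shares the untreated libraries with that of the combination. Satb1 was lower in its CD8 cells, at 169.9 CPM in the S. chamaejasme library and 245 and 296 CPM in the untreated libraries, a log2 change of -0.84 ± 0.19 (adjusted p = 0.0459). This was 1 of 6 members called, where 2.61% of 10013 genes tested were called. The call was lost with gates of 2 UMIs (adjusted p = 0.0599), without combination replicate 1 (0.0969) or combination replicate 2 (0.14), and among cells of cluster 5 (-0.36, adjusted p = 0.425), and it was kept among cells of the granzyme-led cluster 7 (-1.02, adjusted p = 0.019). Within cluster 7 Satb1 was also lower in the combination group than in untreated, by -1.02 (adjusted p = 0.00359), although over all CD8 cells that change was -0.00. Marker lists of gamma delta T cells and of NK cells summed to 179 CPM and 91.9 CPM in the CD8 sum of the S. chamaejasme library, above the 35.8 to 99.3 CPM and 5.15 to 21.4 CPM of the untreated CD8 sums, and their part in the Satb1 value was not tested.

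Myb stood at 8.78 CPM in CD8 cells of the S. chamaejasme library and 16.4 and 21.7 CPM in those of the untreated libraries, a change of -1.30 ± 0.37 that was not called (adjusted p = 0.0857). It was called with lineages taken from clusters (-1.94, adjusted p = 0.00898), where the CD8 class also took in cluster 10, led by Xcl1 and Fcer1g. That cluster held 9.54% of cells in the S. chamaejasme library and 1.02% and 2.77% in the untreated libraries. Myb averaged 9.1 CPM in cluster 10, whose part in the call was not tested. Without an untreated library 1 S. chamaejasme library is set against 1 untreated library and the spread comes from the combination libraries alone, so no p is given for these fits, which called 1773 genes in CD8 cells without untreated replicate 1 and 1343 without untreated replicate 2, against 261 with both. The Myb change was then -1.54 without untreated replicate 1 and -0.98 without untreated replicate 2. Lef1 (-0.50 ± 0.24, adjusted p = 0.267), Bach2 (-0.27), Id3 (-0.07) and Tcf7 (+0.03) were not called in CD8 cells, and the Lef1 change was -0.81 without untreated replicate 1 and -0.09 without untreated replicate 2. In CD4 conventional cells 0 of 6 members were called, where 1.92% of 10328 genes tested were called by edgeR, and 3 of 6, Myb, Tcf7 and Satb1, had an unadjusted p under 0.05. There Satb1 stood at 251 CPM in the S. chamaejasme library and 379 and 338 CPM in the untreated libraries, a change of -0.59 ± 0.13 whose adjusted p of 0.050008 lay just above the threshold in edgeR and was 0.0228 in DESeq2. It was -0.55 without untreated replicate 1 and -0.64 without untreated replicate 2, and -0.37 (adjusted p = 0.224) without cells of cluster 8. Tcf7 stood at 361 CPM in the S. chamaejasme library and 268 and 262 CPM in the untreated libraries (+0.36 ± 0.12, adjusted p = 0.133), with changes of +0.34 without untreated replicate 1 and +0.38 without untreated replicate 2. Myb differed by -0.64 ± 0.28 (adjusted p = 0.247; -0.87 without untreated replicate 1 and -0.24 without untreated replicate 2), Bach2 by +0.24, and Lef1 and Id3 by -0.06 each. A plasma cell marker list summed to 239 CPM in that CD4 conventional sum and to 1.43 and 4.44 CPM in the untreated ones, and its part in these values was not tested. In Treg cells edgeR and DESeq2 each called 0 of 5 members tested, 0 had an unadjusted p under 0.05, and edgeR called 0.283% of 5650 genes tested.

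Several genes of the wider programmes were called between groups as well, in lists chosen with earlier results of these data known. In combination CD8 cells, where 1.26% of genes tested were called higher and 3.33% lower, 6 of 18 stem-like and memory genes were higher (Ly6c2 by 1.17, Cd27 by 0.81, S1pr1 by 0.76) and 1 was lower, with a median of +0.65 beside 0.00 over all genes. Of 15 BACH2 opponents and AP-1 genes, 4 were lower (Prdm1 at -1.40) and 1 was higher, and 8 of 19 effector and exhaustion factors were lower (Zeb2 at -1.92, Bhlhe40 at -1.35). In combination CD4 conventional cells, where 1.57% were called higher and 3.81% lower, 5 of 18 stem-like and memory genes were higher (Igfbp4 by 1.003) and 1 was lower, and Prdm1 was lower, with a log2 change of -1.32. In CD4 conventional cells of the S. chamaejasme group, where 0.716% of genes tested were called higher, 3 of 18 of these genes were higher (Igfbp4 by 0.97, Slamf6 by 0.72) and 0 were lower.

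**Figure D4:**
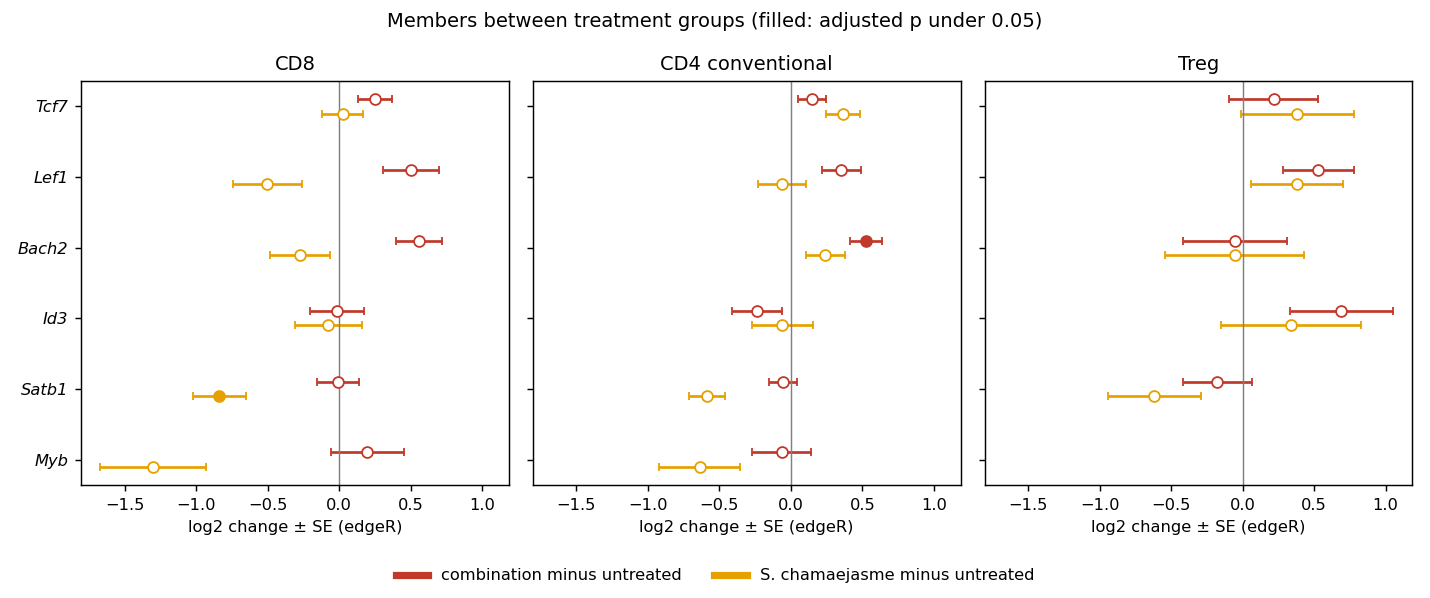
Log2 change ± SE (horizontal axes) of each member for combination minus untreated and S. chamaejasme minus untreated in CD8, CD4 conventional and Treg sums, with filled symbols at an adjusted p under 0.05. The filled symbols are Bach2 at +0.53 in the combination group (CD4 conventional) and Satb1 at -0.84 in the S. chamaejasme group (CD8), and both comparisons share the untreated libraries.

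Over the 14 clusters of the whole map, built without the 6 members and called here by number and leading genes, each member had its own order of levels. These levels are descriptions, with no test. Tcf7 was highest in cluster 1, led by Tox2 and Il21, at 456 ± 89.2 CPM, and lowest in cluster 6, led by Penk, at 50.3 ± 20.7 CPM (SD over libraries, n = 5). Lef1 was highest in cluster 2, with the haemoglobin gene Hbb-bs, Il6ra and Pdlim4 among its leading genes, at 757 ± 42.3 CPM, and in cluster 0, with Ifngr2 and Igfbp4 among its leading genes, at 686 ± 40.6 CPM, which overlap within their spread. In cluster 1, where Tcf7 was highest, Lef1 averaged 150.2 CPM. Lef1 was at 60.5 CPM in the Il17a-led cluster 3 and at 46.9 CPM in cluster 12, led by the gamma delta receptor gene Trdv4 and Cd163l1.

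Myb was highest in cluster 1, at 68.1 ± 13.4 CPM, and in cluster 9, led by Lrrc32, at 66.1 ± 30.8 CPM, which did not differ beyond their spread. It averaged 5.2 ± 1.8 CPM in cluster 3 and 1.5 ± 3.0 CPM in cluster 12. Id3 was highest in cluster 10, led by Xcl1 and Fcer1g, at 258 ± 75.5 CPM, and in cluster 4, led by Hspa1a and Jun, at 255 ± 114 CPM, and lowest in cluster 12 at 4.4 ± 3.6 CPM. Bach2 was lowest in cluster 7, at 14.2 ± 3.4 CPM, and stood at 103 CPM in cluster 0. Satb1 was at 575 ± 86.3 CPM in cluster 0 and 142 CPM in cluster 6. Cluster 11 held 510 cells of a median of 1058.5 UMIs and had the highest mean Bach2 (135 ± 113 CPM) and Satb1 (608 CPM), with a spread for Bach2 nearly as large as its mean.

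Clusters 7 and 5 held most CD8 cells. Cluster 7, led by granzymes, had 78.3 ± 25.5 CPM of Lef1, 158 ± 17.4 CPM of Tcf7 and 33.3 CPM of Id3, and cluster 5, led by Ly6c2 and Dapl1, had 540.0 ± 24.2 CPM of Lef1, 239 CPM of Tcf7 and 114 CPM of Id3. Lef1 thus differed more between the 2 clusters than Tcf7 did.

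**Figure D5:**
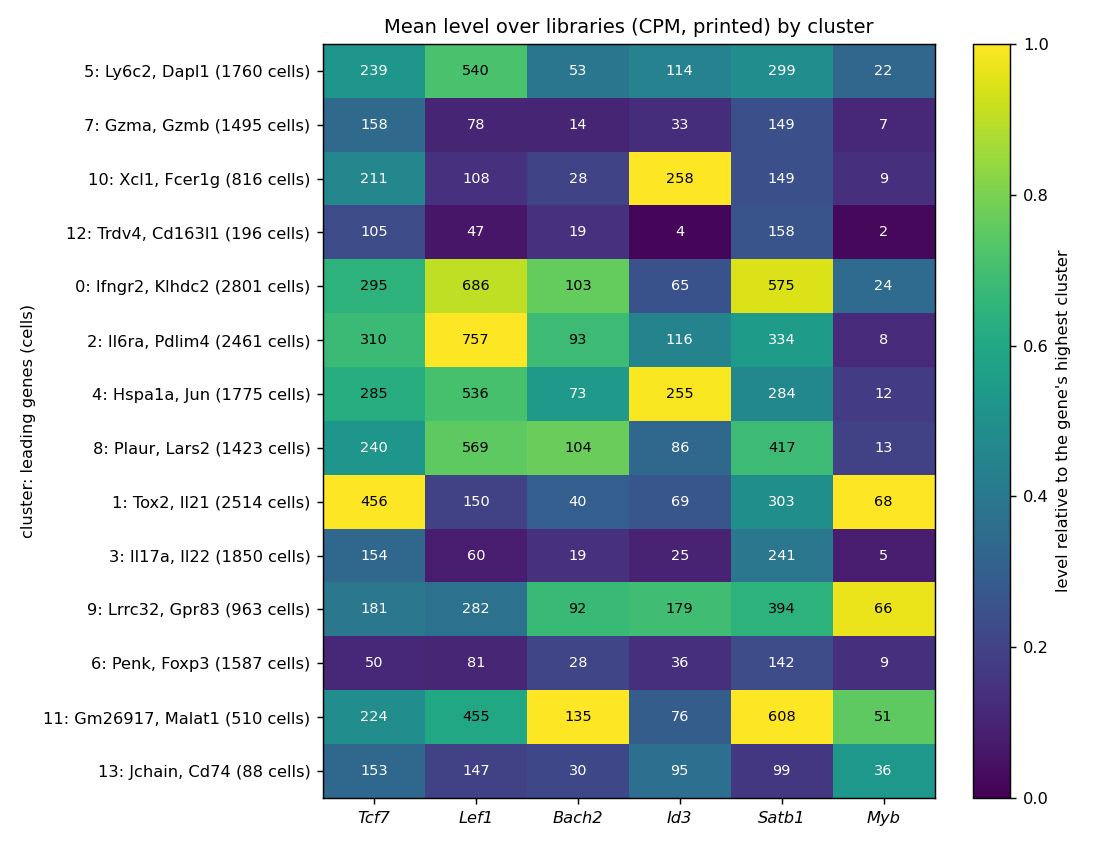
Heat map of each member (columns) in 14 clusters of all retained cells (rows, with leading genes), where the number is the mean CPM over libraries and the colour is that mean relative to the gene's highest cluster. Tcf7 and Myb are highest in cluster 1 (Tox2, Il21), Lef1 in cluster 2 (Il6ra, Pdlim4), and Id3 in cluster 10 (Xcl1, Fcer1g).

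The genes whose levels were most like each member's were found over 24 sums of lineage, clone size and library among 6918 genes, by Pearson's r of log2(CPM + 10) centred on each library. The sums share libraries and depth, and the values are a description. Id3 was most like Lef1 itself, at r = 0.928, with Rpsa (0.916) also among its nearest genes. Lef1 was most like Klhdc1 (0.956), Treml2 (0.948) and S1pr1 (0.945), and Bach2 was most like Il6ra (0.938), Gpr146 (0.923) and Kcnn4 (0.900). Tcf7 was most like Dennd2d (0.853), mt-Nd2 (0.825) and Commd8 (0.820), Myb was most like Dip2b (0.902), mt-Cytb (0.879) and mt-Atp8 (0.879), and Satb1 was most like Atn1 (0.871), Ctse (0.862) and Mtap (0.859).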

How the data were processed

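The deposited RNA matrices are the authors' unnormalized UMI counts for each gene in each cell, made with Cell Ranger 3.1.0 and STAR on mm10, per the submitters' processing notes, and the deposited TCR files list contigs with gene segments, CDR3 and whole-number read and UMI counts. No source used here gives strand use, annotation release or doublet handling. Of 22590 barcodes, 21549 had at least 300 genes and no more than 10% of UMIs from mitochondrial genes. Scrublet's own threshold marked 17 of these, so the cells of highest score, 0.8% for each 1000 cells of a library, were removed together with cells of at least 2 productive TRB chains, 1310 cells in all. Library pairs share 14 to 54 barcodes, of which 0 have the same TRB chain. Gates used at least 1 UMI, sums under 20 cells were left out, and 49.5% of cells were gated.

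Counts were summed per library and class and tested with edgeR 4.0.16 in R 4.3.3 (TMM, filterByExpr, glmQLFit and glmQLFTest, two-sided, Benjamini-Hochberg over all genes tested). Lineages, clone sizes and splits of 1 library come from the same sample, so the library was a block there; the group fits have 2 residual degrees of freedom. Standard errors were taken as the size of the log2 change divided by the root of F. DESeq2 1.42.0, RLE factors, other gates, left-out libraries and other cell filters were alternatives. With lineages from clusters, the CD8 class also held all cells of clusters 10, 11 and 12, of which few were gated as CD8. Splits within single clusters or without them were chosen after the data were seen. The edgeR step was tested on simulated data. Clusters were made with scanpy 1.11.5 and leidenalg 0.10.2 (2000 variable genes without the members, 30 components, resolution 1). The members and gene lists were chosen with earlier results of these data known. Named genes are the 6 members, at most 4 called genes of each list by absolute log2 change, and the 3 genes most like each member. Some genes of these lists are not reported here.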

Additional observations from a re-analysis of the deposited data

Results flagged for a closer look

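The change of Myb with clone size differed between lineages by a test of the difference itself, at -2.68 on the log2 scale for CD8 minus CD4 conventional cells (SE 0.38, adjusted p = 0.000226 in edgeR's quasi-likelihood test, with Benjamini-Hochberg adjustment over 7611 genes). Within CD8 cells Myb was lower in expanded cells in 5 of 5 libraries. Within CD4 conventional cells it was higher in expanded cells in 5 of 5 libraries, but by little in the S. chamaejasme library (21.6 against 20.2 CPM) and untreated replicate 1 (27.5 against 27.2 CPM). That CD4 conventional change was not called by itself (edgeR adjusted p = 0.0552). In CD4 conventional clones of at least 5 cells Myb averaged 11.8 CPM over 3 libraries, against 27.2 CPM in single cells over 5 libraries. That average rests on 3 UMIs in combination replicate 1, 5 in the S. chamaejasme library and 0 in untreated replicate 1 (27, 101 and 23 cells), too few to give a direction. The expanded CD8 values rest on 2 and 3 UMIs in the combination libraries, 4 in the S. chamaejasme library and 3 and 2 in the untreated libraries, and the expanded CD4 conventional values on 40 and 37, 17, and 9 and 34 UMIs. Those expanded CD8 counts would not have passed the filter on low counts by themselves. The difference was -2.07 (adjusted p = 0.022) with gates of 2 UMIs and -2.40 (adjusted p = 0.0081) with clones of at least 3 cells.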

How the results depend on the processing

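Over the alternatives, member changes that were called kept their direction and their side of the threshold in 326 values, lost the call in 29 and turned in 2, and those that were not called stayed so in 539, passed the threshold in 33 and turned in 61. The cause was not tested. The 1 S. chamaejasme library, 2 residual degrees of freedom in the group fits and 2 to 4 Myb UMIs in expanded CD8 sums limit precision. No paired analysis was possible for the group comparisons, which share only replicate numbers given in accession order. Not fitted were Treg clone sizes, the Pdcd1 split of CD8 cells, S. chamaejasme comparisons without their library and Treg groups at gates of 2 UMIs.

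Without the replicate block, which the comparisons within libraries carry, genes called numbered 995 for CD8 against CD4 conventional (2324 with it), 1524 for Treg against CD4 conventional (2456), 1067 for CD4 conventional clone size (1602), 15 for the Tcf7 split of CD4 conventional cells (171) and 0 for that of CD8 cells (36). The block also decided the calls of Id3 (adjusted p = 0.397 without it), Myb (0.129) and Satb1 (0.243) in CD8 against CD4 conventional cells and of Myb in Treg cells (0.0788).

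With DESeq2 counts were 972 and 1021 for clone size in CD8 (1510 in edgeR) and CD4 conventional cells, 152, 245 and 8 for the combination in CD8 (459), CD4 conventional (555) and Treg cells (15), 79, 112 and 10 for S. chamaejasme in CD8 (261), CD4 conventional (198) and Treg cells (16), 415 for the Pdcd1 split (695), 5 and 64 for the Tcf7 split of CD8 and CD4 conventional cells, 0 for the difference of the combination change (11) and 113 for that of the clone size change (176). Without the filter on low counts they were 925, 1414 and 5 for the combination, 810, 925 and 0 for S. chamaejasme in the same lineages, and 81 and 312 for the 2 differences. RLE factors gave 30 for the combination in Treg cells. Gates of 2 UMIs gave 1235 for Treg against CD4 conventional, 554 for CD4 conventional clone size, 140 for the combination in CD4 conventional cells, and 172 and 19 for S. chamaejasme in CD8 and CD4 conventional cells. Keeping doublets gave 6 for the combination in Treg cells and 325 and 10 for S. chamaejasme in CD4 conventional and Treg cells. Lineages from clusters gave 4941 for Treg against CD4 conventional, 36 for each treatment in Treg cells, 659 for S. chamaejasme in CD8 cells and 35 for the difference of the combination change. Clones of 3 or more gave 90 for the difference of the clone size change, and thinning to 2500 UMIs gave 57 for the Tcf7 split of CD8 cells. Cells of the granzyme B cluster alone gave 19 for CD8 clone size and 291 for the combination, and cells of the Dapl1 cluster alone gave 124 for the combination and 21 for S. chamaejasme. Without the Il17a cluster counts were 177 for the combination and 67 for S. chamaejasme in CD4 conventional cells, and without the Plaur cluster 103 for S. chamaejasme.

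Leaving out each library in turn gave 62 to 1725 genes for the combination in CD8, 10 to 1532 in CD4 conventional and 8 to 105 in Treg cells, with fewest without a combination library (the S. chamaejasme library for Treg) and most without an untreated one. For S. chamaejasme it gave 32 to 1773, 13 to 1396 and 28 to 94, again with fewest without a combination library; its fits without an untreated library set 1 library against 1. It gave 431 to 710 for the Pdcd1 split, 19 to 39 for the Tcf7 split of CD8 cells, 11 to 127 for the difference of the combination change and 84 to 164 for that of the clone size change.

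Members turned as follows, in log2 change. In the granzyme B cluster, CD8 clone size gave 0.086 for Tcf7 and 0.036 for Satb1, the combination gave -0.57 for Bach2, 0.14 for Id3 and -0.048 for Tcf7, and S. chamaejasme gave 0.30 for Lef1 and 0.0012 for Id3. In the Dapl1 cluster, Lef1 was -0.0052 for the combination and Bach2 0.19 for S. chamaejasme. Without the Il17a cluster, Tcf7 was 0.25 for CD4 conventional clone size. Without the Plaur cluster, Satb1 was 0.17 for the combination, and Lef1 was 0.31 and Id3 0.081 for S. chamaejasme. With lineages from clusters, the combination gave 0.047 for Myb in CD4 conventional and 0.24 for Bach2 in Treg cells, S. chamaejasme gave 0.10 for Id3 and -0.13 for Tcf7 in CD8 cells and 0.14 for Bach2 and -0.57 for Tcf7 in Treg cells, and the difference of the combination change was -0.083 for Bach2 and -0.030 for Satb1. With gates of 2 UMIs, Lef1 was 0.029 in CD8 against CD4 conventional cells, the combination gave 0.0018 for Satb1 in CD8 and 0.017 for Myb in CD4 conventional cells, and its difference was -0.29 for Bach2. With doublets kept, the combination gave 0.011 for Satb1 in CD8 and 0.092 for Bach2 in Treg cells, its difference was -0.017 for Bach2, and S. chamaejasme gave -0.29 for Id3 in Treg cells. Without the filter, the combination gave 0.013 for Id3 and 0.022 for Satb1 in CD8 cells, the Pdcd1 split -0.081 for Tcf7 and the CD4 conventional Tcf7 split -0.017 for Bach2.

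Leaving out each library in turn, the combination in CD8 cells gave -0.31 to 0.39 for Id3, -0.13 to 0.53 for Myb and -0.20 to 0.23 for Satb1. In CD4 conventional cells it gave -0.49 to 0.15 for Id3, -0.29 to 0.33 for Myb and -0.13 to 0.016 for Satb1, and in Treg cells -0.23 to 0.35 for Bach2, -0.13 to 0.50 for Tcf7 and -0.56 to 0.14 for Satb1. S. chamaejasme gave -0.37 to 0.32 for Id3 and -0.038 to 0.091 for Tcf7 in CD8 cells, -0.27 to 0.19 for Lef1 and -0.31 to 0.32 for Id3 in CD4 conventional cells and -0.22 to 0.36 for Bach2 in Treg cells. The Pdcd1 split gave -1.32 to 0.072 for Id3 and -0.10 to 0.13 for Tcf7, and the CD4 conventional Tcf7 split -0.12 to 0.11 for Bach2 and -0.0059 to 0.063 for Satb1. The difference of the combination change was -0.13 to 0.18 for Bach2 and -0.18 to 0.33 for Satb1, and that of the clone size change -0.33 to 0.017 for Lef1.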

Other observations

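Gamma delta T cells, gated by their receptor transcripts, were too few for a test and were described in the 4 libraries with at least 20 such cells. Id3 stood at 145 and 53.8 CPM in the combination libraries (35 and 22 cells, 24 and 6 UMIs). It stood at 244 CPM in the S. chamaejasme library (113 cells, 96 UMIs) and 452 CPM in untreated replicate 2 (23 cells, 39 UMIs). Id3 averaged 4.4 CPM in cluster 12, led by Trdv4, and 258 CPM in cluster 10, with Trgv2 and Tcrg-V1 among its leading genes. The part of the mix of such cells in these values was not tested. Lef1 stood at 121 and 62.8 CPM, 104 CPM and 127 CPM in the same order, and Tcf7 at 169.7 and 117 CPM, 190.5 CPM and 174 CPM. Bach2 stood at 36.4 and 53.8 CPM, 20.3 CPM and 23.2 CPM, on 6 and 6, 8 and 2 UMIs. Among single Treg cells, Tcf7 stood at 86.6 and 125 CPM in the combination libraries, 129 CPM in the S. chamaejasme library and 114 CPM in untreated replicate 2.

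The share of CD8 cells with a clone that belonged to expanded clones was 9.30% and 14.2% in the combination libraries, 46.5% in the S. chamaejasme library and 38.3% and 19.95% in the untreated libraries. Expanded CD8 cells had lower median depth than single ones in each library, from 3844 to 5169 UMIs per cell against 4168 to 5938.5 UMIs per cell. Levels in CPM take the depth of a sum into account, and the part of depth in the clone size values was not tested.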
